A study of Mus musculus with 22 samples.

Results

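Pck1, G6pc, Fbp1, Pklr, Slc2a2, Gys2, Pygl and Khk are the liver's genes for making glucose, breaking it down, exporting it, storing it as glycogen and taking in fructose. They were found by their symbols in the deposited count table, where 8 of the 55573 genes listed carry these names, and all 8 passed the filter on low counts (a mean of at least 10 counts over all libraries) that left 14062 genes for testing. The libraries are mRNA-seq of whole liver from C57BL/6 mice, 1 library per mouse and 22 mice in all. Cre mice carry wild-type Flcn and Albumin-Cre, and liver-Flcn-/- mice (KO mice) carry floxed Flcn on both alleles together with Albumin-Cre, so every mouse of the study carries the recombinase, which the albumin promoter drives in hepatocytes. Mice were given chow or a diet that lacks methionine and choline and is rich in sucrose and fat (MCD) from 6 weeks of age and for 6 weeks. Chow was fed to 6 Cre and 5 liver-Flcn-/- mice, and MCD to 5 Cre and 6 KO mice. Sex, the feeding state at killing and the time of day are not given in the sources used here. The comparisons ask how the diet and the loss of Flcn, which encodes folliculin, a nutrient-sensing regulator of mTORC1, change the liver's transcripts.

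The liver keeps blood glucose steady by switching between opposite routes. After a meal glucose enters hepatocytes through GLUT2, is trapped by phosphorylation, is stored as glycogen or is burned through glycolysis down to pyruvate, and fructose joins the same route after ketohexokinase has phosphorylated it. In fasting, glycogen phosphorylase releases stored glucose, and gluconeogenesis rebuilds glucose from lactate, amino acids and glycerol through phosphoenolpyruvate carboxykinase, fructose-bisphosphatase and glucose-6-phosphatase. Insulin, glucagon and glucose itself set many of these steps through transcription, with FOXO1, CREB and its coactivators on the fasting side and ChREBP and SREBP-1c on the fed side.

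The sum of counts per library was 15276157 to 19417246 for Cre and 13751347 to 19645473 for KO mice on chow, and 18201287 to 21144388 for Cre and 16616132 to 20706657 for KO mice on MCD. Levels are given as CPM (counts of a gene scaled to a common library size) after TMM scaling. Hepatocyte markers (Alb, Ttr, Apoa1 and others, 9 of 10 tested) were abundant in every library, with a summed level of 65504 to 168366 CPM and Alb the highest of them. Replicate 3 of the Cre mice on MCD stood apart: its skeletal muscle markers (10 genes, led by Myh1) summed to 3034 CPM, against at most 144 CPM in any other library. It also had the highest level among the Cre mice on MCD of 7 of the 8 genes, all but G6pc, so results that turn on it are given with and without it. Xist and Y-linked genes read 12 libraries as female and 10 as male, with 2 or 3 males in each group. The 2 Cre males on MCD were replicates 3 and 4, so fits of males alone that use this group include the library with muscle RNA. Some libraries read as female held Y-linked reads, up to 675 counts in replicate 1 of the Cre mice on MCD and 451 in replicate 2 of the KO mice on chow, against 1906 to 4321 in those read as male. The 5 chow libraries that the study's library statistics give a low share of uniquely mapped reads are the 5 chow libraries read as male, so the mapping share and sex cannot be told apart on chow.

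Flcn itself was lower in KO mice on chow, where its level was 24.2, 20.0, 16.7, 19.4 and 21.8 CPM against a lowest, median and highest level of 26.1, 31.8 and 40.2 CPM in Cre mice. The groups did not overlap, and the log2 fold change was -0.63 (SE 0.17, edgeR adjusted p = 0.0249), a call lost without replicate 6 of the Cre mice or 3 or 4 of the KO mice on chow (-0.62 to -0.56, adjusted p up to 0.0688). The call was also lost without the 5 chow libraries of low unique mapping (-0.55, adjusted p = 0.241). By sex as read from the counts it was lost among females (-0.55, adjusted p = 0.0984) and among males (-0.69, adjusted p = 0.238). On MCD the level was 17.6, 26.6 and 32.6 CPM (lowest, median and highest) in KO mice and 31.7, 18.2, 39.9, 32.5 and 23.6 CPM in Cre mice, a log2 fold change of -0.16 (SE 0.17, adjusted p = 0.567). Counts are summed over the whole gene and over all liver cells, and transcripts that lack the floxed part still count, so the level of Flcn does not check the genotype of single mice.

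On MCD, Cre mice had less mRNA for 6 of the 8 genes and more for none. G6pc and Pygl fell the most, Khk, Fbp1 and Pklr to about the same lesser extent, and Slc2a2 least, while Pck1 and Gys2 did not pass the test. Of all genes tested, 57.5% passed for this comparison (29.3% up and 28.2% down), and medians of the log2 fold change were 0.01 for all genes and -0.95 for the 8. The diet changed 5 of the 8 in KO mice, against 45% of all genes tested (22.5% in each direction): G6pc, Pygl, Khk and Fbp1 fell, Pklr rose, and the median over the 8 was -0.45. Between genotypes, 1 of the 8 (Pck1) passed on chow, where 8.62% of all genes did (5.52% up and 3.1% down), and 3 of the 8 (Pklr and Pygl higher, Pck1 lower in KO mice) on MCD, where 16.6% did (8.06% up and 8.53% down). The response to the diet itself differed between genotypes for Pklr and Pygl, 2 of the 8, against 8.83% of all genes tested (3.29% up and 5.54% down). The 4 comparisons share groups, so they are not independent of each other.

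**Figure D1:**
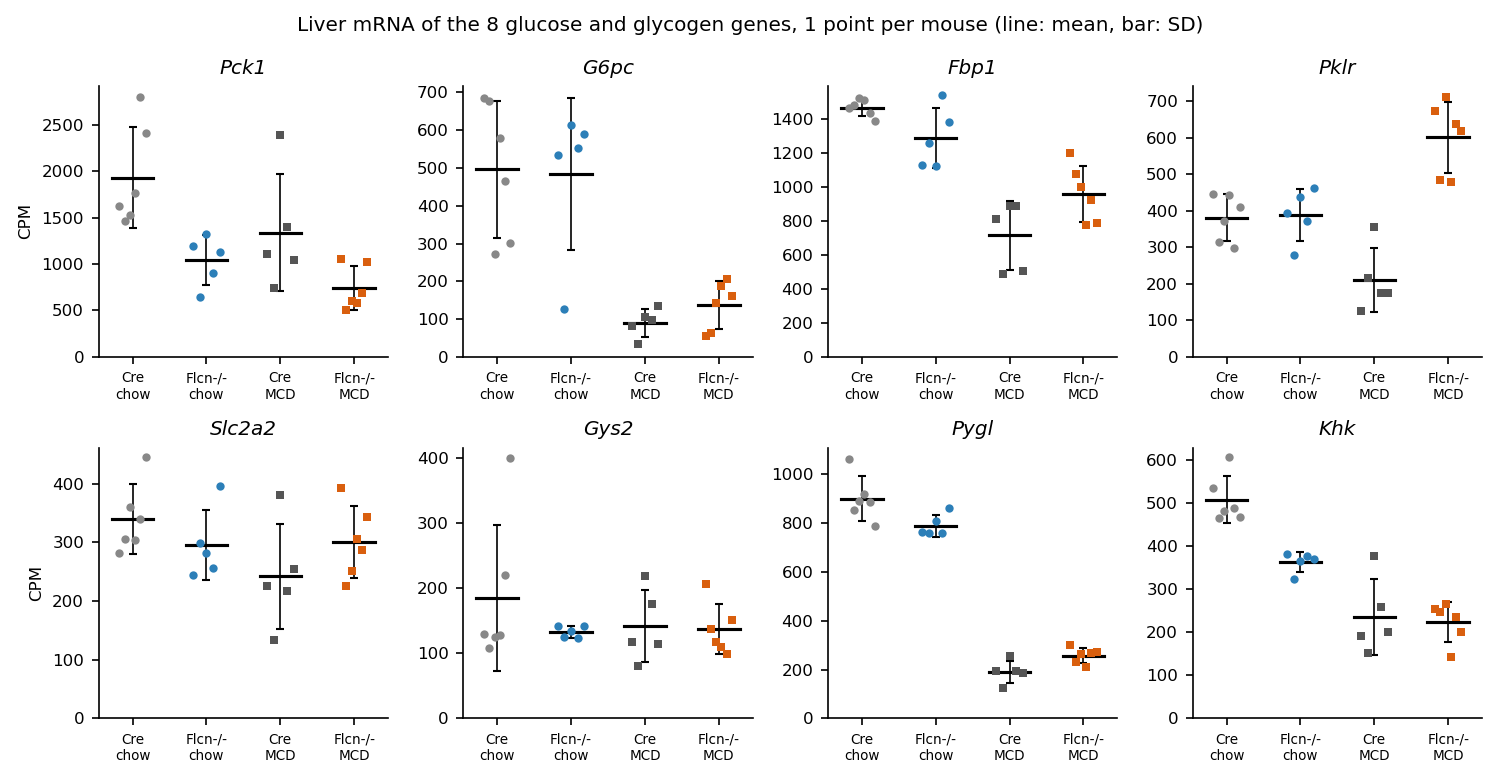
Level of each of the 8 genes (CPM, linear axis from 0) in the 4 groups, 1 point per mouse, with circles for chow and squares for MCD, a line at the group mean and a bar of 1 SD. Pygl on MCD (124 to 302 CPM) lies below every chow mouse (758 to 1063 CPM), and Pklr is highest in the 6 KO mice on MCD (479 to 711 CPM).

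Pck1 encodes the cytosolic phosphoenolpyruvate carboxykinase, the committed step from oxaloacetate towards glucose. The gene lies on GRCm38 chromosome 2 at 173153048 to 173159273, plus strand. Its promoter is shown because the gene was lower in KO mice on both diets and is a textbook target of cAMP signalling. In the RefSeq window of 250 bases before to 50 after the start (GRCm38.p6, chr2:173152823-173153122, plus strand), capitals mark the letters TTACGTCA, 93 bases before the start, found on either strand in 164 of 32851 mouse promoter windows (0.499%).
Pck1: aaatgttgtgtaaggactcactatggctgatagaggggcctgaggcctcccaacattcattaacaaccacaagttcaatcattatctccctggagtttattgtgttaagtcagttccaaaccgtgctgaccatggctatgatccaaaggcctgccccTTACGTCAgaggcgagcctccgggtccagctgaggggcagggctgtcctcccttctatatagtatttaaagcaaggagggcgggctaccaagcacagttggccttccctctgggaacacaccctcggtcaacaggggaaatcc

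On chow the Pck1 level was 1458, 1694 and 2802 CPM (lowest, median and highest) in Cre mice and 1194, 641, 1328, 907 and 1127 CPM in KO mice. Every KO mouse lay below every Cre mouse, and the level was 1.86-fold lower (log2 fold change -0.89, SE 0.27, edgeR adjusted p = 0.0434, two-sided exact permutation p = 0.00433, the smallest possible with 6 against 5 mice). The edgeR call lay close to the threshold: it was lost in 12 of the 22 fits that left out 1 mouse, which were replicates 1, 4, 5 and 6 of the Cre mice and 1, 2, 4 and 5 of the KO mice on chow, and on MCD replicates 1, 4 and 5 of the Cre mice and 5 of the KO mice (log2 fold change -0.95 to -0.76, adjusted p up to 0.117). Without the 5 chow libraries of low unique mapping the log2 fold change was -0.83 with an adjusted p of 0.242.

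On MCD the Pck1 level was 1112, 747, 2384, 1394 and 1040.1 CPM in Cre mice and 502, 648 and 1056 CPM (lowest, median and highest) in KO mice. The groups overlapped, with 2 KO mice (1022 and 1056 CPM) above the lowest Cre mouse, and KO mice lay lower by a fitted log2 fold change of -0.85 (SE 0.27, adjusted p = 0.0333). Without replicate 3 of the Cre mice, the library with muscle RNA and the highest Pck1 level, it was -0.53 with an adjusted p of 0.140, and without replicate 4 of the Cre mice or replicate 2, 3, 4 or 5 of the KO mice it was -0.83 to -0.76 with adjusted p-values of 0.0595 to 0.0711. By sex as read from the counts it was -0.32 (adjusted p = 0.388) among females and -1.42 (adjusted p = 0.0418) among males, fits chosen after seeing the data. The fit among males holds 3 KO and 2 Cre mice, and replicate 3 with its muscle RNA is 1 of these 2. The diet did not change Pck1 past the threshold in Cre mice (log2 fold change -0.53, SE 0.27, adjusted p = 0.0971), but did without that library (-0.85, adjusted p = 0.00674). In KO mice the response to the diet was -0.48 (SE 0.27, adjusted p = 0.146), and the difference between the responses was 0.05 with a 95% interval of -0.69 to 0.79.

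G6pc encodes the catalytic subunit of glucose-6-phosphatase, the enzyme of the endoplasmic reticulum that frees glucose for export at the end of both gluconeogenesis and glycogen breakdown. The gene is on chromosome 11 at 101367561 to 101377903, plus strand. In Cre mice its level was 273, 523 and 684 CPM (lowest, median and highest) on chow and 80.5, 32.9, 105, 96.4 and 135 CPM on MCD. No mouse on MCD reached the lowest chow mouse, and the level was 5.54-fold lower (log2 fold change -2.47, SE 0.43, adjusted p = 5.33e-05).

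In KO mice the G6pc level was 535, 128, 613, 552 and 589 CPM on chow and 55.1, 153 and 206 CPM (lowest, median and highest) on MCD. Replicate 2 on chow, at 128 CPM, lay inside the MCD range, and the other 4 chow mice lay above it. The fall was 3.54-fold (log2 fold change -1.82, SE 0.40, adjusted p = 9.23e-04). G6pc did not differ between genotypes past the threshold on chow (log2 fold change -0.04, 95% interval -0.82 to 0.74) or on MCD (0.60, 95% interval -0.19 to 1.40). Mice of a group varied strongly, with a coefficient of variation of 36.5 to 46.5% over the 4 groups.

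Fbp1 encodes fructose-1,6-bisphosphatase, which removes a phosphate from fructose-1,6-bisphosphate and opposes phosphofructokinase. Fbp1 is on chromosome 13 at 62864753 to 62888282, minus strand. Its level in Cre mice on chow was the most even of the 8 genes in that group, at 1387, 1474 and 1524 CPM (lowest, median and highest), a coefficient of variation of 3.54%. On MCD it was 809.7, 486, 889.8, 885 and 506 CPM, below every chow mouse, a 2.05-fold fall (log2 fold change -1.04, SE 0.16, adjusted p = 9.62e-06).

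In KO mice the Fbp1 level went from 1132, 1261, 1122, 1542 and 1381 CPM on chow to 776, 963 and 1198 CPM (lowest, median and highest) on MCD, a log2 fold change of -0.42 (SE 0.15, adjusted p = 0.0281) that was lost without replicate 4 or 5 on chow or replicate 4 or 6 on MCD of these mice (-0.40 to -0.35, adjusted p up to 0.0854). The genotypes on MCD overlapped, and the log2 fold change of 0.42 (SE 0.15, adjusted p = 0.0632) passed the threshold without replicate 3 (0.51, adjusted p = 0.0309) or 4 (0.51, adjusted p = 0.0410) of the Cre mice or replicate 4 of the KO mice (0.48, adjusted p = 0.0449). It also passed on all mice with limma-voom (0.46, adjusted p = 0.0422) and DESeq2 (0.42, adjusted p = 0.0421). The difference between the responses, 0.61 (SE 0.22, adjusted p = 0.0796), likewise passed without replicate 3 of the Cre mice on MCD (0.70, adjusted p = 0.0439).

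Pklr encodes the pyruvate kinase of liver and red blood cells, the last step of glycolysis, and acts against Pck1 around phosphoenolpyruvate. It lies on chromosome 3 at 89136142 to 89146784, plus strand, and has an upstream start used in red cells and a downstream start used in liver. The liver start's window is shown because Pklr was the gene whose response to the diet differed most between genotypes, and because its response to carbohydrate through ChREBP is a textbook case. In the RefSeq window (GRCm38.p6, chr3:89136373-89136672, plus strand), capitals mark CACGGG and CCCGTG with the 5 bases between them, which begin 170 bases before the start, and the letters TATAAA, 31 bases before it.
Pklr: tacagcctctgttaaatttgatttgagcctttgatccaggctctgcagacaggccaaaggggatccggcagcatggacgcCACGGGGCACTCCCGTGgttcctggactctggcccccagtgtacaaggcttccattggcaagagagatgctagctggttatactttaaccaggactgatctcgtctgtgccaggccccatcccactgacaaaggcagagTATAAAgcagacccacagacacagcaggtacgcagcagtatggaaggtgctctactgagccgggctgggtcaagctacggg
CACGGG followed after 5 bases by CCCGTG, chosen as a motif after this window had been read, occurs in 1 of the 32851 windows, this one, and TATAAA in 13.6% of them, the G6pc window among these, 29 bases before its start. Of the other letters searched on both strands, CACGTG (7.15% of windows) was found 71 bases before the start of Khk, while TGACGTCA (1.79%) and TGTTTAC (3.65%) were in none of the 8 windows that RefSeq gives for 7 of the 8 genes.

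On chow the Pklr levels of the genotypes overlapped, at 299, 391 and 446 CPM (lowest, median and highest) in Cre mice and 393, 277, 437, 371 and 461 CPM in KO mice, and the test was not passed, with a log2 fold change of 0.03 (95% interval -0.36 to 0.42). On MCD the genotypes moved apart. In Cre mice the level was 126, 214, 356, 174 and 176 CPM, and in KO mice 479, 628 and 711 CPM (lowest, median and highest).

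On MCD the lowest KO mouse lay above the highest Cre mouse, which was replicate 3 with its muscle RNA. Pklr was 2.87-fold higher in KO mice (log2 fold change 1.52, SE 0.21, edgeR adjusted p = 3.18e-05, two-sided exact permutation p = 0.00433, the smallest possible). In Cre mice the diet lowered it (log2 fold change -0.86, SE 0.20, adjusted p = 0.00102), and in KO mice raised it (0.63, SE 0.20, adjusted p = 0.0139), where every MCD mouse lay above every chow mouse. The difference between the responses was 1.49 (SE 0.29, adjusted p = 0.00333). The genotype call on MCD and the difference between the responses held in all 22 fits without 1 mouse. By sex as read from the counts, the genotype difference on MCD was 1.93 among females (adjusted p = 1.81e-04) and 1.03 among males (3 against 2 mice, adjusted p = 0.0807), fits chosen after seeing the data.

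**Figure D2:**
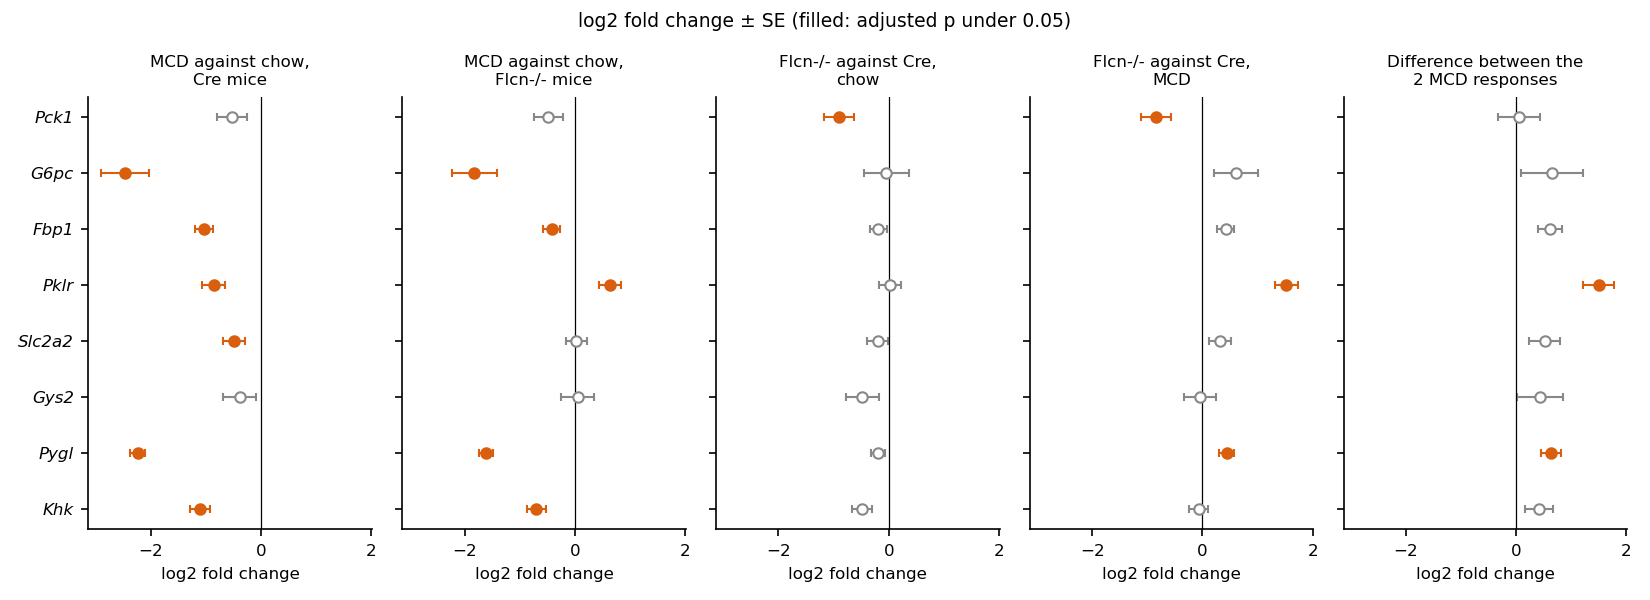
log2 fold change with its SE (bar) for each of the 8 genes in the 4 comparisons and in the difference between the 2 MCD responses, with filled points past an adjusted p of 0.05. Pklr lies at -0.86 for MCD in Cre mice and at 0.63 in KO mice, while Pygl lies at -2.24 and -1.62.

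Slc2a2 encodes GLUT2, the glucose transporter of the hepatocyte membrane, which carries glucose in either direction. It lies on chromosome 3 at 28697903 to 28731359, plus strand. In Cre mice its level was 283, 323 and 446 CPM (lowest, median and highest) on chow and 226, 133, 380.1, 218 and 255 CPM on MCD, where 4 of 5 mice lay below every chow mouse and replicate 3 lay inside the chow range. The level fell by 0.49 on the log2 scale (SE 0.20, adjusted p = 0.0408), and the call was lost without a filter on low counts (adjusted p = 0.0723), with only these groups fitted (adjusted p = 0.0774) and without the 5 chow libraries of low unique mapping (adjusted p = 0.158). It was further lost without replicate 3, 5 or 6 on chow or replicate 1, 2, 4 or 5 on MCD (-0.49 to -0.33, adjusted p up to 0.124).

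In KO mice the Slc2a2 level was 245, 299, 281, 256 and 396 CPM on chow and 226, 297 and 392 CPM (lowest, median and highest) on MCD. These ranges nearly coincide, and the log2 fold change was 0.03 (95% interval -0.36 to 0.42). Whether the responses differed was tested directly, and the difference of 0.52 (SE 0.28, adjusted p = 0.270) did not pass. Between genotypes on MCD the log2 fold change of Slc2a2 was 0.31 (adjusted p = 0.311), and 0.53 (adjusted p = 0.0496) without replicate 3 of the Cre mice.

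Gys2 encodes the liver's glycogen synthase, which lengthens the chains of glycogen. The gene is on chromosome 6 at 142422613 to 142473109, minus strand. Its level was 109, 129 and 400.2 CPM (lowest, median and highest) in Cre mice on chow, 142, 124, 134, 123 and 142 CPM in KO mice on chow, 117, 80.6, 219, 176 and 115 CPM in Cre mice on MCD and 99.5, 128 and 207 CPM (lowest, median and highest) in KO mice on MCD. All 4 groups overlapped, and Gys2 passed the test in none of the comparisons (log2 fold changes -0.48 to 0.05). Cre mice on chow were spread the widest, by replicates 5 and 6 at 221 and 400.2 CPM, with a coefficient of variation of 60.7%, against 6.86% in KO mice on chow.

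Replicate 6 of the Cre mice on chow, the highest for Gys2, also had the highest summed level of 16 circadian clock genes, 877 CPM against 302 to 790 CPM in the other 21 libraries, and Dbp, a clock output gene, was at 195 CPM there against 1.46 CPM in replicate 4 of the same group. The part of the clock in the level of Gys2 was not tested.

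Pygl encodes the liver's glycogen phosphorylase, which cuts glucose-1-phosphate from glycogen. Pygl is on chromosome 12 at 70190811 to 70231488, minus strand. In Cre mice its level was 787, 887 and 1063 CPM (lowest, median and highest) on chow and 192, 124, 255, 195 and 184 CPM on MCD. The groups were far apart, and the fall was 4.73-fold (log2 fold change -2.24, SE 0.14, adjusted p = 4.12e-11), the smallest p of the 8 genes in this comparison.

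In KO mice the Pygl level was 761, 760.4, 807, 758 and 861 CPM on chow and 212, 265 and 302 CPM (lowest, median and highest) on MCD, a 3.07-fold fall (log2 fold change -1.62, SE 0.13, adjusted p = 3.79e-09) with no overlap. On MCD the level was 1.35-fold higher in KO than in Cre mice (log2 fold change 0.44, SE 0.13, adjusted p = 0.0237), with overlapping groups, and without replicate 1 of the KO mice the adjusted p was 0.0556 (log2 fold change 0.39). With only the MCD groups fitted the adjusted p was 0.0751. By sex as read from the counts the log2 fold change was 0.68 (adjusted p = 0.00889) among females and 0.13 (adjusted p = 0.788) among males, whose Cre mice include replicate 3 with its muscle RNA. The difference between the responses was 0.62 (SE 0.18, adjusted p = 0.0369). This call lay near the threshold: it was lost in 12 of the 22 fits without 1 mouse, which on chow were replicates 1 and 5 of the Cre mice and 1, 2 and 4 of the KO mice, and on MCD replicates 1, 4 and 5 of the Cre mice and 1, 3, 5 and 6 of the KO mice (0.57 to 0.63, adjusted p up to 0.0671). Among females the difference was 0.84 (adjusted p = 0.0266) and among males 0.32 (adjusted p = 0.776).

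Khk encodes ketohexokinase, which phosphorylates fructose and so admits dietary sucrose's fructose to the liver's triose pool. Khk is on chromosome 5 at 30921431 to 30931248, plus strand. In Cre mice its level fell from 466, 485 and 606 CPM (lowest, median and highest) on chow to 192, 152, 377, 258 and 200.1 CPM on MCD, 2.15-fold (log2 fold change -1.11, SE 0.18, adjusted p = 2.65e-05), with no overlap even though replicate 3 of the MCD mice was again the highest. In KO mice it fell from 381, 324, 365, 378 and 371 CPM to 142, 242 and 266 CPM (lowest, median and highest), 1.62-fold (log2 fold change -0.70, SE 0.18, adjusted p = 0.00282), also with no overlap.

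On chow every KO mouse had less Khk mRNA than every Cre mouse (two-sided exact permutation p = 0.00433), but the log2 fold change of -0.48 (SE 0.18) had an edgeR adjusted p of 0.0994. It passed when only the 2 chow groups were fitted (-0.46, adjusted p = 0.0109) or replicate 3 of the Cre mice on MCD was left out of the fit (-0.48, adjusted p = 0.0337). On MCD the log2 fold change was -0.07 (95% interval -0.42 to 0.28).

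Hepatocyte markers were also lower on MCD, where the 8 genes did not all fall: Pklr rose in KO mice, and Pck1 and Gys2 passed in neither genotype. Of the 9 hepatocyte markers tested, 7 fell in Cre mice (median log2 fold change -0.99) and 6 in KO mice (median -0.61), and none rose. Their summed level went from a median of 137017 to 98598 CPM in Cre mice and from 122136 to 74335 CPM in KO mice, with Alb the most abundant. Stellate cell and myofibroblast markers rose in Cre mice on MCD (8 of 10, median 1.97), and in KO mice 1 rose and 1 fell (median -0.06). Neutrophil markers rose in both genotypes (5 and 4 of 5). All 10 skeletal muscle markers rose in Cre mice on MCD (median 9.09), and none was called in KO mice. Their sum in Cre mice on MCD ran from 0.922 CPM in replicate 5 to 3034 CPM in replicate 3. Of 10 macrophage markers 5 rose and 1 fell in Cre mice on MCD (median 0.77), and 2 rose and 3 fell in KO mice (median -0.10). Cholangiocyte (3 of 6), erythroid (3 of 5) and proliferation markers (6 of 6, median 2.34) rose in Cre mice on MCD with none falling, whereas in KO mice none rose and 1 erythroid marker fell. Of 8 endothelial markers 2 rose and 3 fell in Cre mice, and 5 fell in KO mice, where 5 of 6 lymphocyte markers fell too. Pkm (1.68) and Hk3 (0.88) rose in Cre mice on MCD, and the part of these markers in their levels was not tested. Between genotypes on MCD the hepatocyte median was -0.07, with 1 of 9 markers lower, and 8 of 10 stellate cell markers were lower in KO mice, whose summed level was 91.7 to 170 CPM against 153 to 504 CPM in Cre mice, or 153 to 286 CPM without replicate 3. Of the macrophage markers 3 of 10 were lower in KO mice on MCD (median -0.39). Of the cholangiocyte markers 2 of 6 were higher there and none was lower, but the median of the 6 was -0.43. All 10 skeletal muscle markers were lower in KO mice on MCD (median -5.93). So were 1 of 5 neutrophil markers (median -0.84) and 1 of 6 proliferation markers (median -1.36), while 1 of 8 endothelial markers was higher. On chow 2 of 9 hepatocyte markers were lower in KO mice (median -0.31), and 3 of 10 macrophage, 2 of 6 cholangiocyte, 1 of 8 endothelial and 1 of 5 erythroid markers were higher. In whole liver, fewer hepatocytes and less RNA per hepatocyte cannot be told apart, and the part of either in these results was not tested.

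Levels per kilobase of exon allow a rough comparison of different genes. The length counts every exon base of any annotated transcript, of which G6pc has 1 and Pygl 6, so genes with many transcripts can read too low. On this scale the order in Cre mice on chow was Fbp1 (862 ± 30.5 CPM per kb, SD, n = 6), Pck1 (563 ± 160), Khk (282 ± 30.4), G6pc (206 ± 75.1), Pygl (130.4 ± 13.3), Pklr (118 ± 19.7), Gys2 (69.8 ± 42.4) and Slc2a2 (59.1 ± 10.2). Pygl and Pklr, and Gys2 and Slc2a2, lie within 1 SD of each other. On MCD the same scale put Fbp1 and Pck1 on top in both genotypes. In Cre mice G6pc (37.2 ± 15.5, n = 5) and Pygl (27.6 ± 6.73) came last, and in KO mice Pklr (186 ± 30.1, n = 6) came next to Pck1 (217 ± 69.1), within 1 SD of it.

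Ratios of enzymes that run opposite steps were taken within each library, where library size cancels, and compared by two-sided exact permutation tests adjusted over 16 comparisons (4 ratios, 3 of which are given, and 4 pairs of groups). Pck1 over Pklr, the balance around phosphoenolpyruvate, had a lowest, median and highest value of 3.63, 4.37 and 9.38 in Cre mice and 2.31, 2.45 and 3.04 in KO mice on chow. On MCD it was 3.48, 6.69 and 8.80 in Cre mice and 0.847, 1.15 and 1.65 in KO mice. Thus the ratio was lower in KO mice on chow (log2 difference -0.92, adjusted exact permutation p = 0.0115) and further below Cre mice on MCD (-2.39, adjusted exact p = 0.0115), with no overlap in either case. Within KO mice the diet lowered it (log2 difference -1.13, adjusted exact p = 0.0115), and within Cre mice the difference was 0.34 (adjusted exact p = 0.441).

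Fbp1 over Pfkl, the balance with the liver's phosphofructokinase, had a median of 36.8 in Cre mice on chow and 18.4 on MCD, with no overlap (log2 difference -1.15, adjusted exact p = 0.0115). In KO mice the medians were 27.9 and 19.2 (log2 difference -0.53, adjusted exact p = 0.0396), a call lost in 10 of the 11 tests that left out 1 mouse (adjusted exact p up to 0.0677). On chow the ratio was lower in KO mice (log2 difference -0.29, adjusted exact p = 0.0433), with overlapping groups, and this call was lost in 8 of 11 such tests (adjusted exact p up to 0.0847). Gys2 over Pygl rose on MCD in both genotypes, from a median of 0.140 to 0.650 in Cre mice (log2 difference 1.97) and from 0.164 to 0.539 in KO mice (1.63), each with no overlap and an adjusted exact p of 0.0115.

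**Figure D3:**
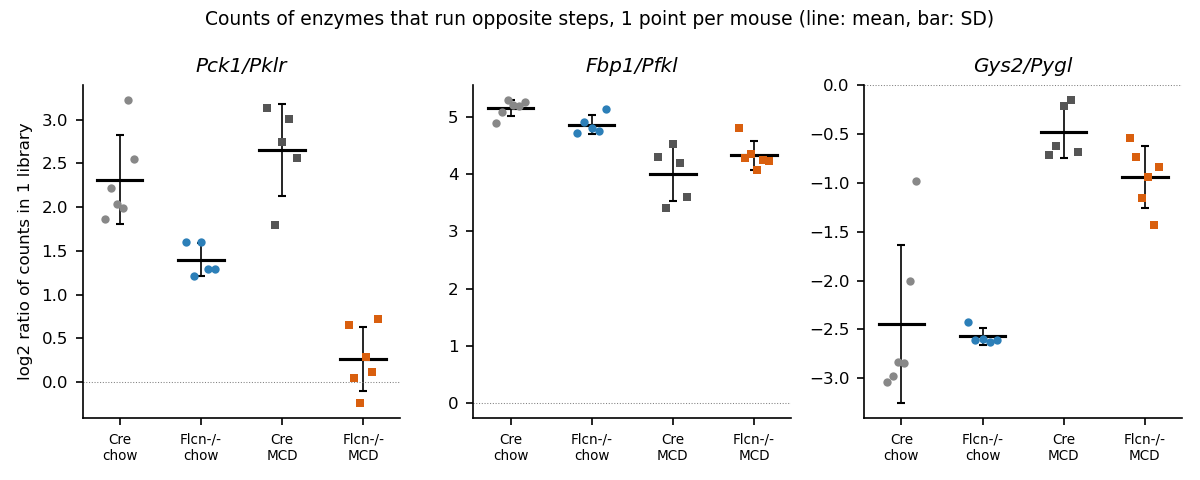
log2 ratio of the counts of 2 opposing enzymes within 1 library, 1 point per mouse in the 4 groups, with a line at the mean and a bar of 1 SD. Pck1/Pklr in the 6 KO mice on MCD lies around 0 and below all other mice, and within each genotype Gys2/Pygl is higher in all MCD mice than in all chow mice.

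Several of the 8 genes have a relative that other tissues use, and the share of the relative was computed from CPM per kilobase. The size of a share depends on the exon lengths, which span all annotated transcripts, so shares are best read between groups. The muscle-type pyruvate kinase Pkm made up 2.33% of Pklr and Pkm together in Cre mice on chow (SD 0.559, n = 6), 3.04% in KO mice on chow (SD 0.982, n = 5), 12.7% in Cre mice on MCD (SD 4.00, n = 5) and 2.20% in KO mice on MCD (SD 0.840, n = 6). Pkm rose on MCD in Cre mice (log2 fold change 1.68, SE 0.20, adjusted p = 5.15e-07) and was lower in KO than in Cre mice on MCD (-1.15, SE 0.20, adjusted p = 4.47e-04). The difference between the responses was -1.54 (SE 0.28, adjusted p = 0.00261), opposite in sign to that of Pklr.

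Pck2, the mitochondrial phosphoenolpyruvate carboxykinase, rose on MCD in both genotypes (log2 fold change 3.29 in Cre and 1.04 in KO mice), was higher in KO mice on chow (1.38, adjusted p = 0.0107) and lower on MCD (-0.88, adjusted p = 0.0456). The call on chow was lost without replicate 4 of the KO mice on chow (1.05, adjusted p = 0.0615). The call on MCD was lost in 13 of the 22 fits without 1 mouse (-0.88 to -0.72, adjusted p up to 0.119). The response of Pck2 to the diet was lower in KO mice (-2.26, adjusted p = 0.00408). Its share beside Pck1 stayed at or below 2.41% in every mouse. G6pc3, the widely expressed glucose-6-phosphatase, made up 1.63% of its pair in Cre mice on chow and 14.5% on MCD, and 2.09 and 10.3% in KO mice. Pygb, the brain-type phosphorylase, went from 0.889 to 10.1% in Cre mice and from 1.94 to 7.92% in KO mice, and Slc2a1, which encodes GLUT1, from 4.71 to 14.5% and from 4.42 to 7.97%. The shares of Fbp2 and Gys1 were at most 0.855 and 4.27% in any mouse, with the largest share of Gys1 in replicate 3 of the Cre mice on MCD.

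**Figure D4:**
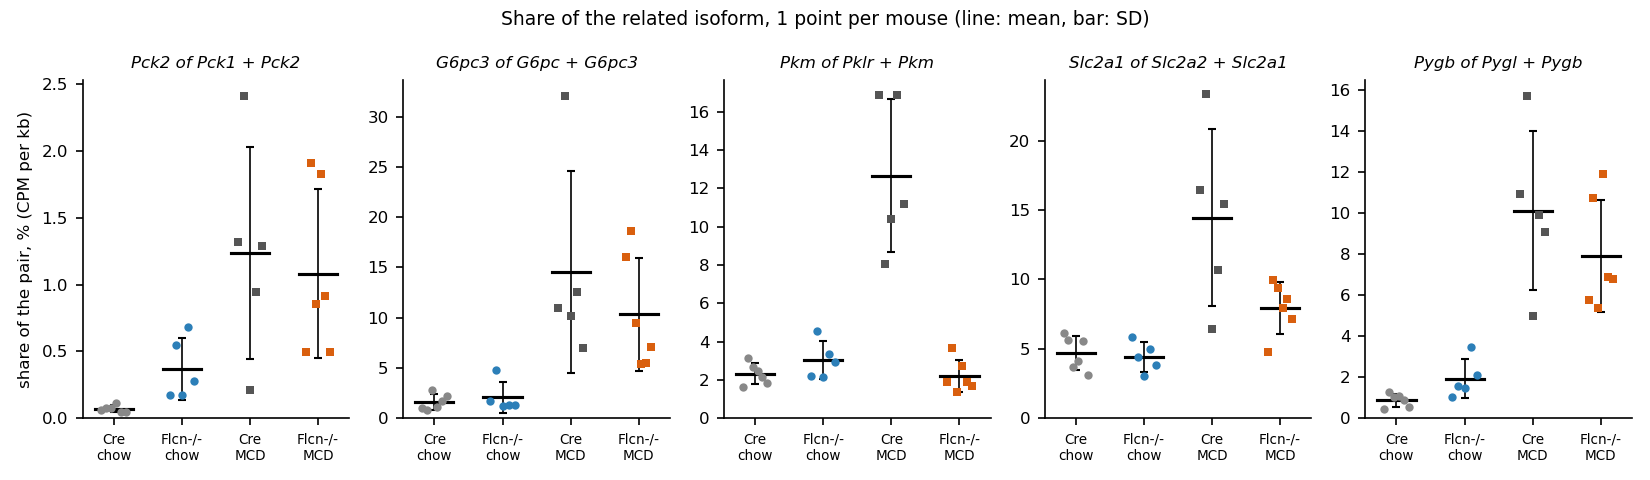
Share of a related isoform in its pair (percent of CPM per kb, linear axis from 0), 1 point per mouse in the 4 groups, with a line at the mean and a bar of 1 SD. The Pkm share averages 12.7% in Cre mice on MCD and 2.20 to 3.04% in the other 3 groups.

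Around the 8 genes, the other enzymes of gluconeogenesis (15 genes) did not fall with them on MCD: 9 rose and 2 fell in Cre mice (median log2 fold change 0.58), and 10 rose and 1 fell in KO mice (median 0.31), beside medians of 0.01 and 0.0043 over all genes tested. Of all genes 29.3% rose and 28.2% fell in Cre mice and 22.5% each in KO mice, the background for the counts of every list. Beside Pck2, Mdh2, the mitochondrial malate dehydrogenase, rose by 1.11 and 1.20 and Ldhb, a lactate dehydrogenase subunit, by 3.43 and 1.31. Mdh1, the cytosolic malate dehydrogenase, fell by 0.78 in Cre and by 0.37 in KO mice, and this response differed between genotypes (0.41, adjusted p = 0.0140), a call lost in 5 of 10 alternatives other than leaving out 1 mouse (adjusted p up to 0.512). Ldhb was also higher in KO mice on chow (3.14, SE 0.36, adjusted p = 4.14e-06) and on MCD (1.03, adjusted p = 0.0248), while Gpd1, the cytosolic glycerol-3-phosphate dehydrogenase, was lower on both (-0.51 and -0.60). On MCD Ldha (-0.66) and Gpt (-0.38), an alanine transaminase, were lower in KO mice. In fits without 1 mouse the call on MCD was lost for Gpt in 8 of 22 (adjusted p up to 0.0833) and for Ldhb without replicate 1, 2, 4 or 5 of the Cre mice on MCD (0.84 to 0.97, adjusted p up to 0.0702). The response of Ldhb to the diet was lower in KO mice (-2.11, adjusted p = 0.00826). Fbp2 was at 2.32 CPM or less on average in every group.

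Among 23 other genes of glycolysis, 13 rose and 2 fell on MCD in Cre mice (median 0.32), and 9 rose and 4 fell in KO mice (median 0.14). Pfkp, the platelet-type phosphofructokinase, rose with the diet (2.06 and 2.00) and was higher in KO mice on chow (2.02, SE 0.36, adjusted p = 9.19e-04) and on MCD (1.96, SE 0.34, adjusted p = 5.24e-04). On MCD Gckr (0.78, adjusted p = 0.00508), Gpi1 (0.34), Tpi1 (0.36) and Pgam1 (0.43) were higher in KO mice, and Pkm, Hk3 (-1.13), Pfkfb4 (-0.85) and Hk2 (-1.58) were lower. Hk2, the muscle-type hexokinase, lost its call without replicate 3 of the Cre mice (-0.49, adjusted p = 0.106). Gpi1 lost its call in 7 of the 22 fits without 1 mouse (0.27 to 0.34, adjusted p up to 0.126). On chow Pgam1 was higher in KO mice (0.42). The responses of Pkm, Hk3 (-1.34) and Pfkfb4 (-1.31) to the diet were lower in KO mice.

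Of 8 genes of fructose and polyol handling, 2 rose and 2 fell on MCD in Cre mice, and 1 rose and 2 fell in KO mice. Slc2a9, a urate and hexose transporter, fell in both (-1.43 and -1.06), and so did Glyctk, the glycerate kinase at the end of fructose breakdown (-0.50 and -0.74). In KO mice on chow Slc2a9 (-0.38) and Sord (-0.52), the sorbitol dehydrogenase, were lower, as was the level of Khk without passing the test, and Akr1b3, the aldose reductase that makes sorbitol, was higher (1.17, SE 0.14, adjusted p = 1.17e-05). Without 1 mouse the call was lost in 14 of 22 fits for Slc2a9 (adjusted p up to 0.129) and in 8 of 22 for Sord (adjusted p up to 0.118). On MCD Tkfc (-0.72), which phosphorylates glyceraldehyde from fructose, and Glyctk (-0.50) were lower. Akr1b3 rose with the diet in Cre mice (1.08), and its response was lower in KO mice by 1.23 (log2 difference -1.23, adjusted p = 0.00107).

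Glycogen genes moved on both sides. Of 11 tested genes of glycogen synthesis and its control, 4 rose and 4 fell on MCD in Cre mice, and 5 rose and 4 fell in KO mice. The glycogen-targeting subunits of protein phosphatase 1, which activate glycogen synthase, fell the most: Ppp1r3b by 3.32 and 2.48 and Ppp1r3c by 2.42 and 1.98 on the log2 scale in Cre and KO mice. Pgm2 (1.90 and 1.22), a phosphopentomutase and phosphoglucomutase, and Gyg (1.55 and 1.10), the glycogenin primer, rose. Ugp2, which makes UDP-glucose, was the only gene of this list to differ between genotypes on MCD (0.51, adjusted p = 0.00648). On chow Pgm2 was higher (0.73) and Pgm1 lower (-0.24) in KO mice. The call of Pgm2 was lost without replicate 4 of the KO mice on chow (0.55, adjusted p = 0.0555). That of Pgm1 was lost in 17 of the 22 fits without 1 mouse (adjusted p up to 0.108) and kept in 4 of 11 other alternatives.

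Of 12 tested genes of glycogen breakdown and its control, 3 rose and 7 fell in Cre mice on MCD, and 1 rose and 6 fell in KO mice. Stbd1, which tethers glycogen to membranes, rose in both (1.15 and 1.21), and Epm2a, the glycogen phosphatase laforin, fell in both (-1.14 and -0.69). Gaa, the lysosomal alpha-glucosidase that digests glycogen in lysosomes, was higher in KO mice on MCD (0.56, SE 0.09, adjusted p = 3.68e-04), and its response to the diet was higher in these mice (0.50, adjusted p = 0.0237), a call lost in 5 of 10 alternatives other than leaving out 1 mouse (adjusted p up to 0.373). On chow Pygb was higher in KO mice (0.96, adjusted p = 0.0342), a call lost without replicate 1, 5 or 6 of the Cre mice or 4 or 5 of the KO mice on chow (0.66 to 0.96, adjusted p up to 0.171). Pygm, the muscle phosphorylase, stood at 73.5 CPM in replicate 3 of the Cre mice on MCD and at 3.64 CPM or less in every other mouse, so the size of its log2 fold changes (3.80 with MCD in Cre mice, -3.86 between genotypes on MCD and -4.04 for the difference between the responses) rests on that library. Without it the genotype difference was -0.83 (adjusted p = 0.0702) and that between the responses -1.02 (adjusted p = 0.145). The call of Pygm with MCD in Cre mice held in all 22 fits without 1 mouse (0.77 to 4.12, adjusted p up to 0.0412). It was lost in 2 of 10 other alternatives (adjusted p up to 0.638).

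In 8 genes of the pentose phosphate branch, 1 rose and 2 fell on MCD in Cre mice and 2 fell in KO mice. Pgd, the 6-phosphogluconate dehydrogenase, rose in Cre mice (0.80) and was lower in KO mice on MCD (-0.71, adjusted p = 0.0118), while Rpe (-0.71 and -0.50) and Taldo1 (-0.32 and -0.61), of the branch that returns pentoses to glycolysis, fell in both genotypes, the call of Taldo1 in Cre mice being lost without replicate 3 on MCD (-0.25, adjusted p = 0.0541). Of 13 genes for the entry of pyruvate into mitochondria, the step after Pklr, 3 rose and 6 fell in Cre mice on MCD, and 5 rose and 2 fell in KO mice. The medians of this list were -0.18 and 0.21. Dlat (0.48), Dld (0.40), both subunits of the pyruvate dehydrogenase complex, and Pdk2 (0.68), a kinase that inhibits it, were higher in KO mice on MCD, and the responses of Dlat (0.70), Dld (0.45) and the subunit Pdhb (0.57) to the diet were higher in these mice, in the same direction as that of Pklr. The differences for Dld and Pdhb were each lost in 5 of 10 alternatives other than leaving out 1 mouse (adjusted p up to 0.476 and 0.273). Pdk4, the fasting-induced inhibitory kinase, rose on MCD in both genotypes (1.53 and 1.74), and Pdk1 fell (-1.44 and -0.62). Pdk3 (1.66), another such kinase, rose in Cre mice. Pdp1, a phosphatase that opposes them, also rose there, from a mean of 1.41 CPM on chow (SD 0.471, n = 6) to 4.04 CPM on MCD (SD 1.16, n = 5). On chow Pdk1 (-0.68) and Mpc2 (-0.49), of the mitochondrial pyruvate carrier, were lower in KO mice. The call of Mpc2 was lost in 16 of the 22 fits without 1 mouse (adjusted p up to 0.122). Pdk1 lost its call without replicate 3 or 4 of the Cre mice or 1, 3 or 4 of the KO mice on chow (-0.68 to -0.58, adjusted p up to 0.0822). The difference for Pdhb was lost without replicate 1 or 4 of the Cre mice on MCD or 4 of the KO mice on chow (0.52 to 0.55, adjusted p up to 0.0565).

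Of 22 transcriptional regulators of these genes, 2 rose and 15 fell on MCD in Cre mice (median -0.48), and 1 rose and 11 fell in KO mice (median -0.40). Of all genes, 28.2% fell in Cre and 22.5% in KO mice. Onecut1 (-2.77 and -2.31), Srebf1 (-1.54 and -1.77), which encodes SREBP-1c, and Foxa2 (-1.44 and -0.68) fell in both genotypes, and Nr0b2, the bile acid-induced repressor SHP, in Cre mice (-1.38). Ppargc1a, the coactivator PGC-1alpha of the fasting response, rose in both (0.55 and 1.05) and was higher in KO mice on MCD (1.10, SE 0.21, adjusted p = 9.61e-04). Pck1 and G6pc, which it is known to activate, had log2 fold changes of -0.85 and 0.60 between genotypes there. The call of Pck1 was lost without replicate 3 of the Cre mice, and G6pc did not pass. The part of Ppargc1a in their levels was not tested. Tfe3, whose protein FLCN is known to hold in the cytoplasm, had a slightly lower mRNA level in KO mice on MCD (-0.29, adjusted p = 0.00609). On chow Crtc2 (-0.30) was lower in KO mice, a call lost in 16 of the 22 fits without 1 mouse (adjusted p up to 0.159). The fall of Foxa2 in KO mice lost its call without replicate 2 on chow (-0.41, adjusted p = 0.0714).

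In 15 genes of insulin and glucagon signalling, 3 rose and 5 fell in each genotype on MCD. Trib3, a stress-induced inhibitor of AKT, rose the most (3.88 and 3.66), followed by Igfbp1 (2.18 and 1.75), which insulin represses, while Pde3b, which degrades cAMP downstream of insulin, fell (-0.85 and -0.55), and Irs1 fell in KO mice (-0.88). Akt1 was higher in KO mice on MCD (0.29, adjusted p = 0.0125). Igfbp1 on chow ranged from 17.4 CPM, in replicate 2 of the KO mice, to 279 CPM in replicate 5 of the same group, and that replicate 2 also had the lowest G6pc level of the group (128 CPM). In Cre mice on chow the lowest Igfbp1 levels, 28.7 and 28.8 CPM in replicates 3 and 6, were likewise in the 2 mice with the lowest G6pc levels (273 and 301 CPM). These are single mice, and a link between the 2 genes was not tested. With the diet they moved apart in both genotypes, Igfbp1 rising and G6pc falling (-2.47 in Cre and -1.82 in KO mice).

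Among 12 genes that respond to glucose through ChREBP, 1 rose and 7 fell on MCD in Cre mice (median -1.08), and 2 rose and 5 fell in KO mice (median -0.26). Taken gene by gene, the median difference between these responses was only 0.17, and the median between genotypes on MCD was -0.02. The lipogenic genes Scd1 (-6.42 and -6.13), Fasn (-2.74 and -3.34), Acly (-2.37 and -2.42) and Elovl6 (-1.77 and -2.21) fell in both genotypes, whereas Pklr fell in Cre mice and rose in KO mice. Of this list Gpd1 on both diets and Tkfc on MCD were lower in KO mice. The response to the diet differed between genotypes for Klf10, a glucose-induced repressor (1.72, SE 0.48, adjusted p = 0.0290), a call lost in 6 of the 22 fits without 1 mouse (1.43 to 1.69, adjusted p up to 0.0587).

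**Figure D5:**
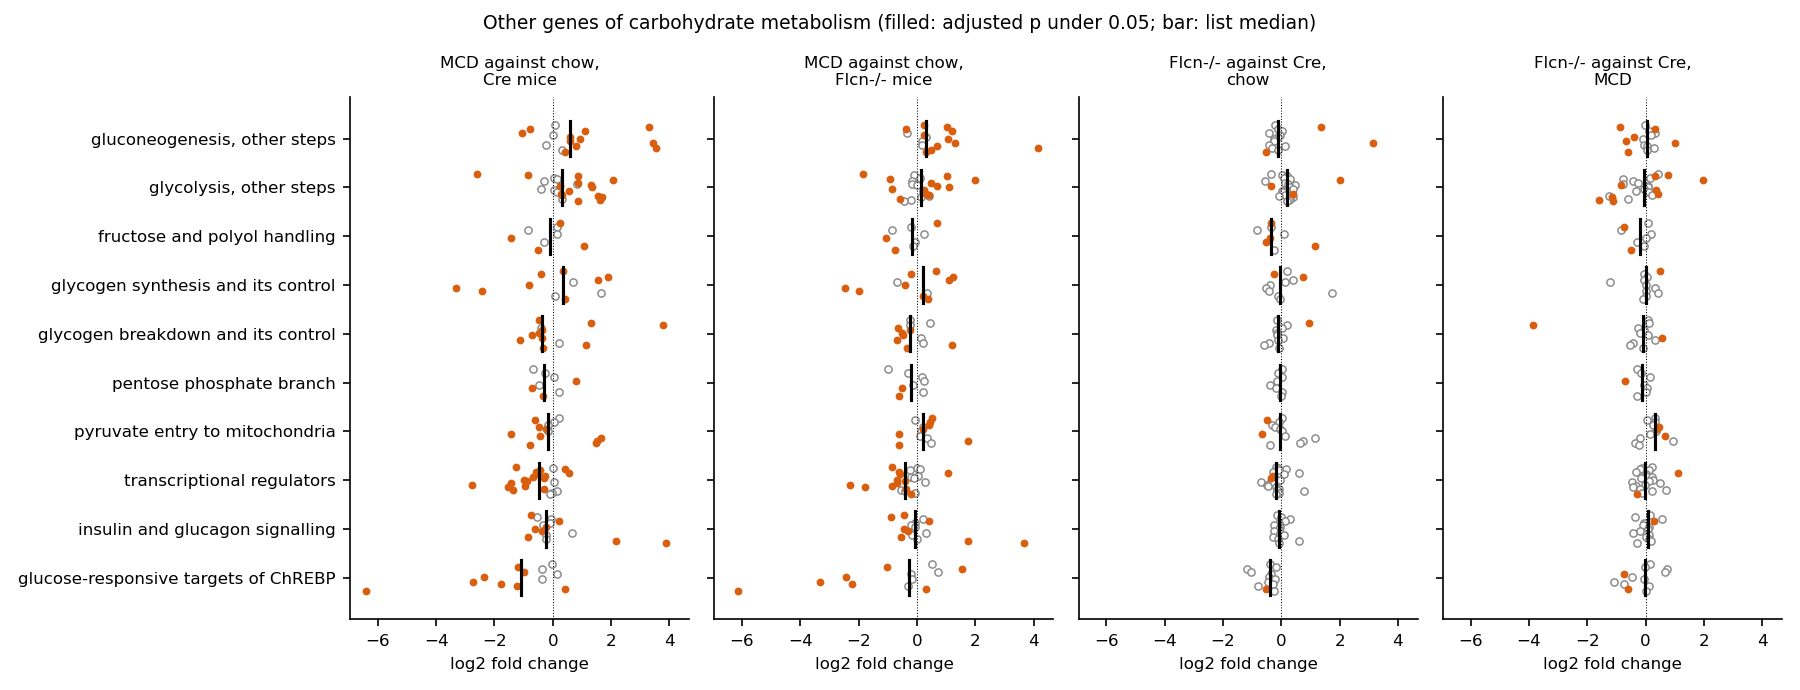
log2 fold change of every tested gene of 10 lists around the 8 genes in the 4 comparisons, 1 point per gene, filled past an adjusted p of 0.05, with a bar at the median of the list. The targets of ChREBP have a median of -1.08 on MCD in Cre mice and -0.26 in KO mice, and of -0.02 between genotypes on MCD.

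Over the 22 libraries, the genes whose log2 CPM followed Pygl most closely were Pipox (Pearson r = 0.99), Dpys (0.99) and Slc27a5 (0.99), and those most like Khk were Snrk (0.96), Thrsp (0.94) and Pxmp2 (0.94). Fbp1 was most like Hdac11 (0.93), G6pc most like Pid1 (0.88), Pklr most like Atp5a1 (0.89), Idh3b (0.85) and Pdk2 (0.85), Slc2a2 most like Fcho2 (0.87), Gys2 most like Slc25a32 (0.86) and Pck1 most like Gpbp1 (0.85). Among the 8 genes, Pygl and Khk followed each other (0.89), as did Pygl and Fbp1 (0.88), while Pck1 and Pklr had an r of -0.19. These values share the same libraries and the 4 groups, and describe likeness only.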

How the data were processed

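The authors extracted total RNA from liver, made mRNA libraries with adapters that hold molecular identifiers, trimmed single-end reads with Trimmomatic, aligned them to GRCm38 with STAR and deposited HTSeq counts per gene, whole numbers with no normalization. A step that collapses reads by identifier is not given in the sources used here. Genes whose counts averaged 10 or more over the 22 libraries were fitted with edgeR 4.0.16 in R 4.3.3 (TMM, 1 fit of the 4 groups, two-sided quasi-likelihood test, Benjamini-Hochberg adjustment over all 14062 genes, threshold 0.05), after a test on simulated data. CPM are TMM-scaled, log2 CPM used a prior count of 2, and 95% intervals are normal intervals from the SE. Ratios and single genes were compared by exact permutation tests (scipy 1.17.1). Alternatives were limma-voom (limma 3.58.1), DESeq2 1.42.0, RLE factors, other filters, fits of the compared groups only, sex as a covariate, a replicate block, and leaving out libraries. Exon lengths, which join the exons of all annotated transcripts of a gene, and positions come from GENCODE M21. No 2 libraries of a group were identical (50 pairs). Reads copied by PCR are not independent molecules.

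The 8 genes and all lists were chosen with earlier results of these data known. Named were the 8 genes, their relatives and Flcn, from each of 10 pathway lists the 4 genes with the largest change on MCD in either genotype among those past the threshold with at least 1 CPM on average, every list gene past the threshold for genotype or the interaction, and for likeness the 3 genes with the highest Pearson r among those with at least 5 CPM. A few listed genes that this rule names, and 1 ratio, are not reported here.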

Additional observations from a re-analysis of the deposited data

Results flagged for a closer look

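In the liver-Flcn-/- (KO) mice on chow, replicate 2 lay below the other 4 for G6pc and for Khk. Each gap was more than Dixon's 95% limit on the log2 scale. For G6pc it was at 128 CPM against 535 to 613 CPM. For Khk it was at 324 CPM against 365 to 381 CPM, a small gap beside 4 values that lay close together. Of 32 combinations of gene and group examined, chance alone flags about 1 in 20. The same library held 451 Y-linked counts although its Xist count read it as female, and its Igfbp1 level was 17.4 CPM, the lowest of the 22 libraries. The part of either in these values was not tested.

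The response to MCD differed between genotypes by a test of the difference itself for Pklr (log2 difference 1.49, adjusted p = 0.00333) and for Pygl (0.62, adjusted p = 0.0369), both higher in KO than in Cre mice.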

How the results depend on the processing

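The diet's effect on G6pc, Pygl and Khk and every call of Pklr kept their direction under the alternatives run, but calls were lost among females for G6pc in KO mice (-1.31, adjusted p = 0.0684) and among males for Khk in Cre mice (-0.62, adjusted p = 0.0808) and for Pklr with the diet in Cre (-0.52, adjusted p = 0.210) and KO mice (0.38, adjusted p = 0.409), between genotypes on MCD (1.03, adjusted p = 0.0807) and for the difference (0.89, adjusted p = 0.458). The count of the 8 genes called between genotypes on chow was 0 without a filter on low counts, 0 without the 5 chow libraries of low unique mapping, 2 with only the compared groups fitted and 0 to 2 with 1 mouse left out. On MCD it was 1 with only the compared groups fitted, 4 with limma-voom or DESeq2 and 2 to 4 with 1 mouse left out. For the difference between the responses it was 1 without a filter, 1 without those 5 libraries and 1 to 3 with 1 mouse left out. In fits chosen after seeing the data, libraries read as male alone gave 3 (MCD in Cre mice), 3 (MCD in KO mice), 0 (chow), 1 (MCD) and 0 (difference), and those read as female 0 on chow.

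In the fit with the replicate block, the count for the difference between the responses was 1 (Pygl 0.65, adjusted p = 0.0503), and calls were lost for Fbp1 on MCD in KO mice (-0.39, adjusted p = 0.0619), Slc2a2 on MCD in Cre mice (-0.46, adjusted p = 0.0503) and Flcn on chow (-0.57, adjusted p = 0.0528). Sign changes with the block were -0.034 for Slc2a2 and -0.087 for Gys2 on MCD in KO mice and -0.056 for the difference for Pck1. Whether the numbers pair the mice cannot be decided here. Deviations of same-numbered mice from their group means had a mean correlation of 0.061 between genotypes on chow (-0.55 to 0.47). There the correlations were positive where both mice were read as the same sex and negative where not, so they cannot show a pairing. Between genotypes on MCD the mean was 0.129 (0.062 to 0.26). The main fit used no pairing.

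Without the 5 chow libraries, signs changed for Gys2 on MCD in Cre mice (0.23), Slc2a2 on MCD in KO mice (-0.077), Pklr (-0.028) and Gys2 (0.10) between genotypes on chow, and the differences for Pck1 (-0.014) and Gys2 (-0.15). Ratios then became Fbp1/Pfkl -1.19 and -0.60 for the diet in Cre and KO mice and -0.26 between genotypes on chow, Pck1/Pklr -0.998 for the diet in KO mice and -0.82 on chow, and Gys2/Pygl 2.40 and 1.67 for the diet, none past the threshold. With 3 chow mice left in each genotype the smallest exact p before adjustment is 0.0357 and 0.0238 for the diet in Cre and KO mice and 0.1 on chow, so missing the threshold says nothing about these ratios. Gys2/Pygl became 0.27 on chow. With sex as a covariate Gys2 on MCD in KO mice was -0.036. Among females alone Slc2a2 was -0.11 and Gys2 -0.079 on MCD in KO mice, Pklr -0.025 and Gys2 0.11 on chow, and Gys2 0.24, Khk 0.37 and Flcn 0.24 between genotypes on MCD. Among males alone Flcn was 0.13 on MCD in Cre mice, G6pc 0.28 on chow, and the differences for Pck1, G6pc and Khk -0.59, -0.26 and -0.19. Calls gained among females were Pck1 on MCD in Cre mice (-0.71, adjusted p = 0.0206), Flcn on MCD in KO mice (0.51, adjusted p = 0.0343), Fbp1 between genotypes on MCD (0.59, adjusted p = 0.0448) and the difference for Khk (0.90, adjusted p = 0.0211, against 0.41 in all mice). None of the values that changed sign passed the threshold, and the causes were not tested.

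With 1 mouse left out, the ranges that crossed 0 were -0.26 to 0.013 (Flcn, MCD in Cre mice), -0.063 to 0.15 (Slc2a2) and -0.11 to 0.12 (Gys2, both MCD in KO mice), -0.17 to 0.20 (G6pc) and -0.042 to 0.13 (Pklr, both on chow), -0.20 to 0.17 (Gys2) and -0.20 to 0.16 (Khk, both between genotypes on MCD) and -0.10 to 0.36 (Pck1, difference). Gys2/Pygl ranged from -0.25 to 0.16 on chow and -0.54 to -0.37 on MCD. Fbp1/Pfkl ranged from -0.63 to -0.47 for the diet in KO mice and -0.36 to -0.25 on chow.

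Over all genes, calls between genotypes on chow were 1212, but 627 among females, 335 among males, 495 without the 5 chow libraries and 669 without replicate 4 of the KO mice on chow. Calls of the difference were 1242, but 552 with the block, 63 among males, 783 without those 5 libraries, 817 without replicate 1 of the Cre mice on MCD and 813 without that replicate 4. In the fit of males alone calls were 4685 against 8089 in all mice (MCD in Cre mice), 2905 against 6328 (MCD in KO mice) and 720 against 2333 (genotype on MCD).

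Among the other pathway genes, calls lost in 4 or more alternatives other than leaving out 1 mouse were those on chow of Crtc2 (8 of 11), Pgm1 (7), Slc2a9 (6), Sord (5), Mpc2 (5), Pdk1 (4) and Pygb (4), on MCD of Gpi1 (6 of 11), Pck2 (4), Gpt (4) and Hk2 (4), and for the difference of Pygm (6 of 9) and Mdh1, Gaa, Dld and Pdhb (5 of 10 each) and Klf10 (4 of 10). These alternatives include both fits to 1 sex, which hold fewer mice.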
